A study of Mus musculus with 4 samples.

Results

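Interferon-stimulated genes (ISGs) were examined in Beko cells, a mouse progenitor T-cell line in which Notch signaling is constitutively active, upon washout of the γ-secretase inhibitor (GSI) DAPT. The set of 43 ISGs was chosen by gene symbol from a fixed list, made with earlier results of these data known. All 43 are among the 24391 genes of the count table. The RNA-Seq experiment has 4 libraries. In 2 libraries (GSI), the cells were treated for 48 h. In the other 2 (washout), the same treatment was followed by a wash and 24 h of culture in the absence of GSI, so that all 4 libraries come from cells that were exposed to GSI. The inhibitor was renewed during the treatment, and its dose is given as 10 mg/ml in the labels and as 10 μg/ml in the methods of the study. γ-Secretase releases the active intracellular domain of Notch, so the comparison shows how the ISGs differ between inhibited cells and cells in which cleavage of Notch can resume. No library of cells that were washed and cultured alike with the inhibitor present was analysed here, so that washing, the additional 24 h of culture and the return of Notch activity cannot be told apart. All cells are of 1 line, and nothing states that the replicates are separate cultures, so the p-values measure only the spread between these libraries.

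Interferons are secreted proteins that bind receptors on the cell surface and activate the JAK kinases, which phosphorylate STAT proteins. Stat2 and Irf9 are subunits of the complex ISGF3, which binds the interferon-stimulated response element (ISRE), whereas STAT dimers bind the gamma-activated site (GAS). The ISGs that are switched on in this way sense foreign nucleic acids, block virus replication or feed back on the pathway, and many of them, among them Irf7 and Stat2, encode components of the pathway itself.

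The main result is that, of the 43 ISGs, 32 were tested, of which 11 (34.4%) fell upon washout and 1 (3.12%) rose. Of all genes tested, 11.7% fell and 7.74% rose by the same thresholds. Irf7, which amplifies type I interferon production, was 8.11-fold lower. Ddx58, which encodes the RNA sensor RIG-I, was 5.35-fold lower, and Usp18, which removes Isg15 from proteins and dampens receptor signaling, was 5.23-fold lower. Zbp1, Isg20, Rsad2, Xaf1, Ifi27l2a, Igtp, Ifit1 and Oas3 fell as well, of which Ifit1 was lost with DESeq2 (adjusted p of 0.150). The 1 ISG that rose was Oas2, which rests on few reads and is the direct neighbor of Oas3 on chromosome 5. Several familiar ISGs, among them Isg15, Trim25, Irgm1 and Parp14, did not pass the test.

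A gene was called higher or lower where its adjusted p was under 0.05 and its log2 fold change was beyond 1 or -1, by edgeR's quasi-likelihood test over the 12266 genes with sufficient counts. Of the 43 ISGs, 32 had sufficient counts to be tested. Among all genes tested, 11.7% were called lower and 7.74% were called higher, whereas 11 of the 32 tested ISGs (34.4%) were lower and 1 of 32 (3.12%) was higher. With the adjusted p alone, 19 ISGs were lower and 3 were higher, against 25.4% and 27.0% of all genes tested. The median log2 fold change of the tested ISGs was -0.71, with a range from -3.75 to 2.55, and that of all genes tested was -0.01. The GSI and washout libraries did not overlap in 23 ISGs that were lower and in 4 that were higher, which compares with 39.1% and 38.2% of all genes tested. The CPM (counts per 1e6 counts of the library, after TMM scaling) summed over the 43 ISGs was 1027 and 1035 in the GSI libraries and 718 and 741 in the washout libraries. As these are bulk libraries, fewer cells that express a gene and less RNA per cell cannot be told apart.

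**Figure D1:**
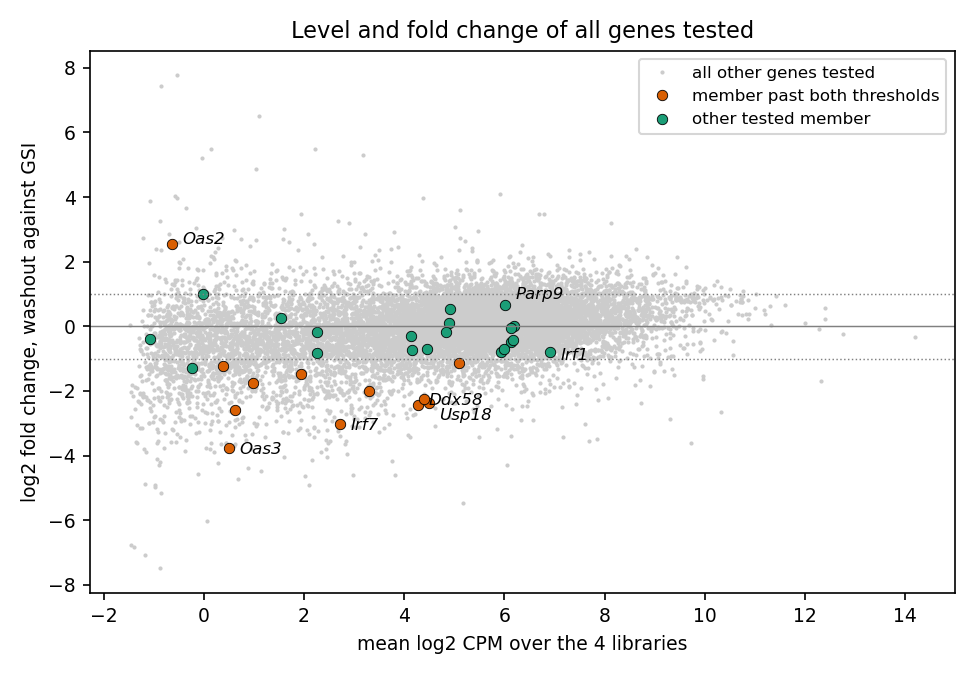
The washout against GSI log2 fold change (vertical axis) is plotted against the mean log2 CPM of the 4 libraries (horizontal axis) for all 12266 genes tested, with the 32 tested ISGs as large points and dotted lines at log2 fold changes of 1 and -1. Of the 12 orange points, which passed both thresholds, 11 lie below -1, and Oas2 alone lies above 1.

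The total counts were between 13716199 and 36364200, and replicate 1 was the deeper library in both groups. Of 8 Notch target genes, 8 rose upon washout, among them Hey1 by 3.47, Dtx1 by 3.20, Hes1 by 1.42 and Notch1 by 1.14 on the log2 scale, of which Hes1 was lost with DESeq2 (adjusted p of 0.0732). The chi-square between replicates was 18.1 per degree of freedom in GSI and 29.2 in washout, beyond counting error. Of 13 T-lineage markers, 13 were expressed and tested, of which Ptcra was higher and Cd4 and Gata3 were lower. Markers of other cell types moved as well. Of 10 myeloid and dendritic markers, Lyz2, Elane and Siglech were at 0 in all libraries and only Itgam was tested, and their summed CPM was 38.9 to 49.95 in GSI and 5.13 to 5.93 in washout, nearly all of it from Itgam. Of 5 B-cell markers none was tested, Pax5 and Ms4a1 were at 0, and their summed CPM was 0.7497 to 0.959 in GSI and 0.323 to 0.372 in washout. The 5 erythroid markers, of which Hbb-b1 and Hba-a1 were among those at 0, summed to 12.3 to 13.2 CPM in GSI and 6.90 to 6.92 in washout. Most of this came from Epor. The 6 stromal and epithelial markers, of which Col3a1 and Krt8 were at 0, summed to 218 to 267 and 94.0 to 100.05. Most of this came from Pecam1, with 221 and 174 CPM in GSI against 67.1 and 64.4 in washout. The part of these markers in the changes of the ISGs was not tested.

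The ISRE is the sequence feature by which ISGs are best known, and it was searched as its core, GAAA, any 2 bases, GAAA, in the RefSeq promoter windows of GRCm38.p6, which run from 250 bases before to 50 bases after the start of the gene. Of the 43 ISGs, 32 have at least 1 window, and all of their 42 windows were found unchanged in the mm9 genome (NCBIM37). At least 1 core, on either strand, was present in 15 of 32 ISGs (46.9%), compared with 3.99% of the 27025 genes whose windows were searched. Windows on 1 chromosome, which holds none of the ISGs, were left out of the search. Mx1, Mx2, Rtp4, Ifi27l2a, Zbp1, Oas2, Ifi204, Usp18, Parp9, Dhx58 and Parp14 have no window. Of the 8 ISGs that fell and have a window, 5 hold the core, and these are printed here because they belong to genes that fell. Isg15, which holds 3 overlapping cores, and Bst2, which had the highest level per length of all ISGs, are shown for comparison, as neither passed both thresholds. In each sequence, which is written 5′ to 3′ on the strand of the core, the capitals mark the GAAA repeats of 1 core.
Ddx58: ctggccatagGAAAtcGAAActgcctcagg
Oas3: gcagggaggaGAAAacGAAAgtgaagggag
Igtp: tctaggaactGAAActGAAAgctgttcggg
Rsad2: tctgttttctGAAAatGAAAgttggaccag
Ifit1 distal core: actgagactgGAAAgtGAAActgaagcctg
Ifit1 proximal core: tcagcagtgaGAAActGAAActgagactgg
Isg15 middle core: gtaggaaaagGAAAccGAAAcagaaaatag
Bst2 proximal core: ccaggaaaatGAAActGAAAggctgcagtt

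On the mm9 genome, the Ddx58 sequence is at chr4:40186837-40186866 on the plus strand and lies mostly within the annotated gene, which is on the minus strand. The other sequences are upstream of the annotated genes. That of Oas3 is at chr5:121227724-121227753 on the minus strand, that of Igtp at chr11:58013014-58013043 on the plus strand and that of Rsad2 at chr12:27141418-27141447 on the plus strand. Those of Ifit1 are at chr19:34715265-34715294 and chr19:34715284-34715313 on the minus strand, that of Isg15 is at chr4:155574980-155575009 on the minus strand and that of Bst2 is at chr8:74061476-74061505 on the minus strand. The core was not confined to the ISGs that fell. Besides the 5 of 8 ISGs that fell, it was present in 2 of 7 that were lower by less than 2-fold (Bst2 and Stat2), in 0 of 1 that was higher by less than 2-fold (Ifit2), in 5 of 9 that did not pass the test (Gbp3, Isg15, Trim30a, Irgm1 and Ifit3) and in 3 of 7 that were not tested (Ifih1, Gbp2 and Oas1a). The promoter windows of Irf7, Isg20 and Xaf1, which fell, do not contain these letters. The GAS motif (TTC, any 3 bases, GAA) was present in 10 of 32 ISGs (31.2%) against 9.55% of the genes searched. The letters TGGGAA, the core of the motif of RBPJ, the DNA-binding factor of the Notch pathway, were present in 13 of 32 (40.6%) against 28.3%. An ISRE core overlapped a GAS motif in 1 window and an RBPJ core in 1 window. These matches describe letters in a window, and no binding was measured here.

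The ISGs that fell are spread over the genome. On mm9, Irf7 is at chr7:148448605-148452380 and Isg20 at chr7:86058310-86065248, Ddx58 at chr4:40150806-40186861, Usp18 at chr6:121195924-121220934 and Zbp1 at chr2:173032113-173044424. Igtp is at chr11:58013058-58021093 and Xaf1 at chr11:72115131-72127235, Rsad2 is at chr12:27127618-27141317 and Ifi27l2a at chr12:104680377-104681890, and Ifit1 is at chr19:34715361-34724499.

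Among the transcription factors of the pathway, all 5 members of the set were lower upon washout by the adjusted p, but Irf7 alone by more than 2-fold. Irf7 had 11.996 and 11.03 CPM in the GSI libraries and 1.23 and 1.71 CPM in the washout libraries. Its log2 fold change was -3.02 ± 0.25 (SE, edgeR adjusted p of 0.000438), so that its fall was far larger than the spread between replicates. Exons of Irf7 overlap those of Phrf1 on the opposite strand, and the strand setting of the counting is not given in the sources used here.

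Irf1, which is induced early by interferon gamma, had 144 and 160 CPM in GSI against 76.5 and 99.97 in washout, a log2 fold change of -0.79 ± 0.15 (edgeR adjusted p of 0.00544). Stat2, a subunit of ISGF3, had 75.0 and 80.9 CPM in GSI against 39.1 and 50.9 in washout, a log2 fold change of -0.80 ± 0.14 (edgeR adjusted p of 0.00477). Irf9, the DNA-binding subunit of ISGF3, had 21.8 and 22.5 CPM in GSI against 14.2 and 12.4 in washout, a log2 fold change of -0.73 ± 0.14 (edgeR adjusted p of 0.00582). In each of these factors every GSI library was above every washout library. Irf8, a factor of lymphoid and myeloid cells, differed least, with 81.8 and 83.4 CPM in GSI against 62.6 and 53.9 in washout and a log2 fold change of -0.50 ± 0.11 (edgeR adjusted p of 0.00941). The call of Irf8 was lost after correction for GC content and exon length, with an edgeR adjusted p of 0.0620. Exons of Irf9 overlap those of Rnf31 on the same strand.

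**Figure D2:**
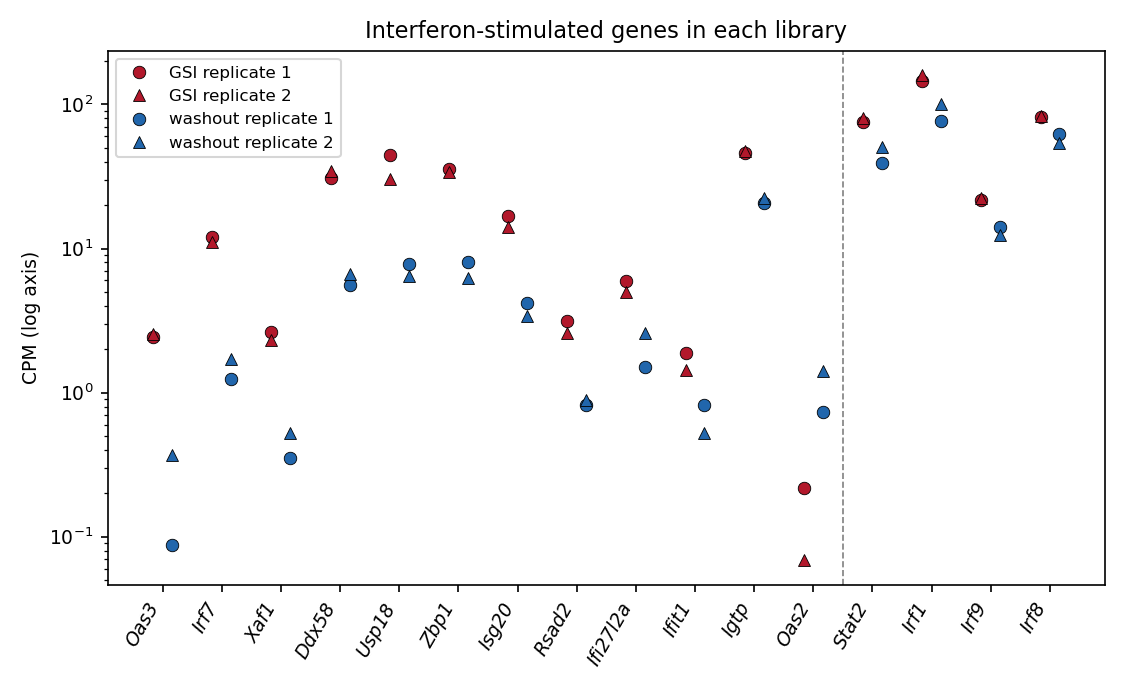
CPM of the 12 ISGs past both thresholds (left of the dashed line) and of the other 4 ISGs that encode transcription factors (right) in each library, on a log axis, with GSI in red, washout in blue, circles for replicate 1 and triangles for replicate 2. Both red points lie above both blue points for each gene except Oas2, for which the order is turned.

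The receptors of viral RNA and the IFIT proteins, which bind RNA that lacks the marks of the host, were split. Ddx58 had 30.9 and 34.3 CPM in GSI against 5.61 and 6.69 in washout, a log2 fold change of -2.42 ± 0.15 (edgeR adjusted p of 0.000315). Dhx58, which encodes the RIG-I-related helicase LGP2, had a log2 fold change of -0.81 (edgeR adjusted p of 0.0401), and this call was lost with DESeq2, with an adjusted p of 0.0777, and without GSI replicate 1, GSI replicate 2 or washout replicate 2, with adjusted p-values of 0.206, 0.0600 and 0.141. Ifih1, which encodes the sensor MDA5, was too low to be tested, with 0.344 and 0.343 CPM in GSI against 0.235 and 0.223 in washout. Thus, of the 3 helicase genes, Ddx58 fell by more than 2-fold, Dhx58 by less, and Ifih1 was not tested.

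The 3 Ifit genes of the set lie in the same region of chromosome 19 and had 3 outcomes. Ifit1 was low throughout, with 1.87 and 1.44 CPM in GSI against 0.822 and 0.521 in washout, and fell with a log2 fold change of -1.24 ± 0.38 (edgeR adjusted p of 0.0337). This is the weakest of the 12 calls, as DESeq2 gave an adjusted p of 0.150 and leaving out GSI replicate 1 or 2 gave an edgeR adjusted p of 0.206 or 0.0676, and leaving out washout replicate 1 or 2 one of 0.0688 or 0.133. Ifit2 went in the opposite direction, with 25.6 and 23.4 CPM in GSI against 37.3 and 34.1 in washout. Its log2 fold change was 0.55 ± 0.12 (edgeR adjusted p of 0.00930), which is less than 2-fold, and the adjusted p was 0.0561 without GSI replicate 2. Ifit3, whose reads may be shared with a near-identical copy, had a log2 fold change of -0.39 ± 0.61 and did not pass the test.

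The OAS proteins are activated by double-stranded RNA and make short oligoadenylates, and the Oas genes gave both the largest fall and the only rise beyond 2-fold. Oas3 had 78 and 37 counts in the GSI libraries and 3 and 5 counts in the washout libraries. In CPM, these are 2.44 and 2.53 against 0.0881 and 0.372, and the log2 fold change was -3.75 ± 0.57 (edgeR adjusted p of 0.00265). Oas2 had 7 and 1 counts in GSI and 25 and 19 counts in washout. In CPM, these are 0.219 and 0.0685 against 0.734 and 1.41, and the log2 fold change was 2.55 ± 0.63 (edgeR adjusted p of 0.0164). The groups did not overlap for either gene, but both rest on few reads, and the call of Oas2 was lost without GSI replicate 2, with an edgeR adjusted p of 0.0584. Oas1a was at 0 in all libraries, and Oasl1 and Oasl2 were too low to be tested, with no library above 0.625 CPM.

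On mm9, Oas2 is at chr5:121180342-121199862 and Oas3 at chr5:121203107-121227670, both on the minus strand and 3244 bases apart. The genes around them were looked at after the opposite changes were seen. On the far side of Oas3, Oas1c and Oas1b were lower, with log2 fold changes of -2.05 ± 0.56 and -2.31 ± 0.29. On the other side of Oas2 and 18405 bases away lies the Notch target Dtx1, which had a log2 fold change of 3.20 ± 0.25, and next to it Rasal1, which encodes a GTPase-activating protein for Ras, with 1.60 ± 0.15. The edgeR adjusted p was 0.0234 for Oas1c, 0.00138 for Oas1b, 0.000396 for Dtx1 and 0.000569 for Rasal1. Farther out on the side of Dtx1, Ddx54 had a log2 fold change of 0.90 ± 0.14 (edgeR adjusted p of 0.00254), Iqcd one of -0.59 ± 0.29 (0.134) and Tpcn1 one of -0.76 ± 0.10 (0.00179), so that this side held changes in both directions. Whether the neighbors bear on either gene was not tested.

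**Figure D3:**
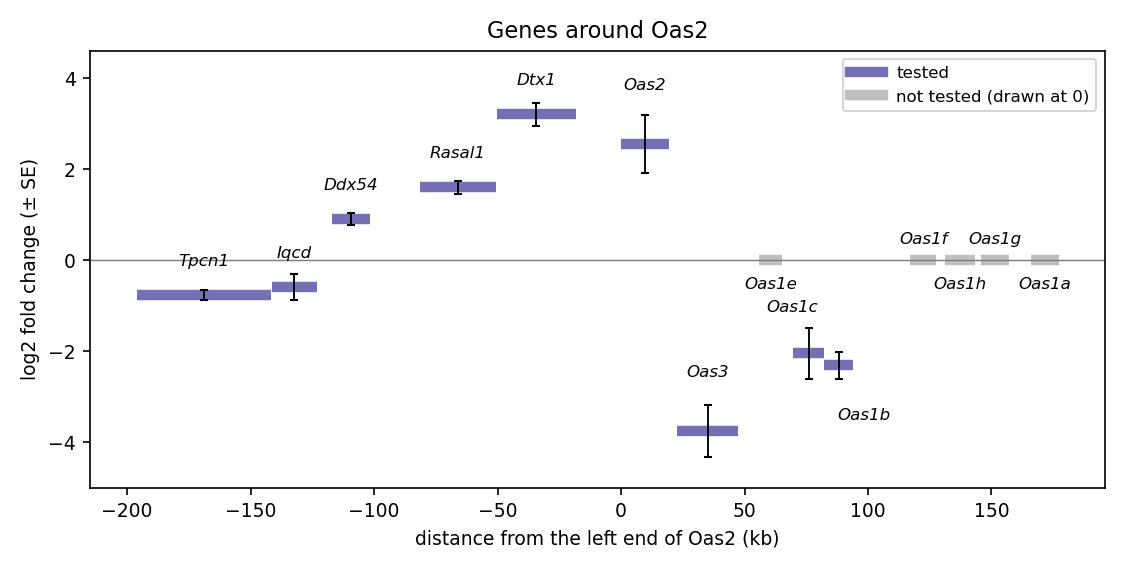
Washout against GSI log2 fold changes (vertical axis) of the genes around Oas2, drawn as bars over their extent in kb from the left end of Oas2 (horizontal axis), with the SE as a black line and genes that were not tested in gray at 0. Ddx54, Rasal1, Dtx1 and Oas2 lie above 0, and Oas3, Oas1c and Oas1b to the right and Tpcn1 and Iqcd at the left end lie below it.

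The large GTPases attack virus capsids or the vacuoles of intracellular parasites. Igtp, also known as Irgm3, had 45.8 and 47.6 CPM in GSI against 20.6 and 22.4 in washout, and fell with a log2 fold change of -1.12 ± 0.11 (edgeR adjusted p of 0.000621). Its relatives Irgm1 and Ifi47 had log2 fold changes of -0.31 ± 0.13 and 0.10 ± 0.15 and did not pass the test. Ifi47 shares exonic sequence with Olfr56. Gbp3 had a log2 fold change of 1.002 ± 0.38 with an edgeR adjusted p of 0.0651, and thus missed the threshold on p. Mx1 had 6 and 1 counts in GSI and 0 and 0 in washout, Mx2 had 0.250 and 0.137 CPM against 0.118 and 0.149 CPM, and Gbp2 had 0.406 and 0.822 CPM against 0.118 and 0.149 CPM, and none of the 3 was tested. Of this group, only Igtp was called, and the GTPase genes of these families are similar enough in sequence that their counts are uncertain.

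In the Isg15 system, the ubiquitin-like protein Isg15 is attached to other proteins. Its protease gene Usp18 fell, as did Uba7, which encodes its activating enzyme and is not in the set (log2 fold change of -1.71). Usp18 had 44.4 and 30.4 CPM in GSI against 7.78 and 6.40 in washout, a log2 fold change of -2.39 ± 0.22 (edgeR adjusted p of 0.000569). The GSI replicates differed from each other, but each was well above both washout libraries. Isg15 itself had 5.28 and 4.59 CPM in GSI against 4.41 and 4.39 in washout, and its log2 fold change of -0.17 ± 0.22 did not pass the test (edgeR adjusted p of 0.541). Trim25, the ligase that activates RIG-I, had a log2 fold change of 0.02 ± 0.10, whose direction turned to -0.18 when libraries were scaled by total count alone. Trim30a, which has near-identical copies, had a log2 fold change of -1.30 ± 0.46 and missed the threshold with an edgeR adjusted p of 0.0555.

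None of the 3 PARP genes of the set, which encode ADP-ribosyltransferases, passed both thresholds. Parp9 was higher by less than 2-fold, with 51.6 and 48.5 CPM in GSI against 80.9 and 78.1 in washout and a log2 fold change of 0.67 ± 0.09 (edgeR adjusted p of 0.00191). Exons of Parp9 overlap those of Dtx3l on the opposite strand. Parp12 and Parp14 had log2 fold changes of 0.27 ± 0.36 and -0.18 ± 0.12 and did not pass the test.

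Of the genes that restrict viral nucleic acids and virions, all 5 tested were lower by the adjusted p, as were the 5 transcription factors, and 3 of them by more than 2-fold. Zbp1, a sensor of Z-form nucleic acids that triggers cell death, had 35.7 and 33.8 CPM in GSI against 8.05 and 6.25 in washout, a log2 fold change of -2.26 ± 0.16 (edgeR adjusted p of 0.000343). Isg20, an exonuclease, had 16.8 and 14.1 CPM in GSI against 4.20 and 3.42 in washout, a log2 fold change of -2.00 ± 0.20 (edgeR adjusted p of 0.000682). Rsad2, which encodes viperin, had 3.16 and 2.60 CPM in GSI against 0.822 and 0.893 in washout, a log2 fold change of -1.77 ± 0.31 (edgeR adjusted p of 0.00464). In all 3, the lowest GSI library was well above the highest washout library.

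Bst2, which encodes tetherin, a protein that holds budding virions at the cell surface, had the highest level per length of the ISGs, with 99.9 and 105 RPKM (CPM per kilobase of exon) in GSI and 62.2 and 63.9 RPKM in washout. In CPM these are 76.3 and 79.9 against 47.6 and 48.8, and the log2 fold change was -0.70 ± 0.09 (edgeR adjusted p of 0.00154). Thus the most abundant transcript of the set was lower in both washout libraries, but by less than 2-fold. Adar, which edits double-stranded RNA, had a log2 fold change of -0.41 ± 0.10 (edgeR adjusted p of 0.0141). This call was lost after correction for GC content and exon length and without GSI replicate 2, with adjusted p-values of 0.0757 and 0.115. Samhd1, which hydrolyzes nucleotides, had 3 and 0 counts in GSI and 0 and 3 in washout.

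Of the remaining ISGs, Xaf1, a pro-apoptotic gene, had 2.62 and 2.33 CPM in GSI against 0.353 and 0.521 in washout, and fell with a log2 fold change of -2.58 ± 0.37 (edgeR adjusted p of 0.00214). Ifi27l2a had 5.94 and 5.00 CPM in GSI against 1.498 and 2.60 in washout, and fell with a log2 fold change of -1.49 ± 0.33 (edgeR adjusted p of 0.0110), a call that was lost without GSI replicate 1 with an adjusted p of 0.0555. Its exons overlap those of its paralog Ifi27l2b. For both genes, the groups did not overlap. Ifi35 was lower by less than 2-fold, with a log2 fold change of -0.69 ± 0.14 (edgeR adjusted p of 0.00711), and Lgals3bp, with -0.05 ± 0.10, did not pass the test. Ifi44 and Rtp4 were at 0 in all libraries. Ifi204 had 1 and 2 counts in GSI and 40 and 1 in washout, so that its reads come from 1 library, and it was not tested.

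**Figure D4:**
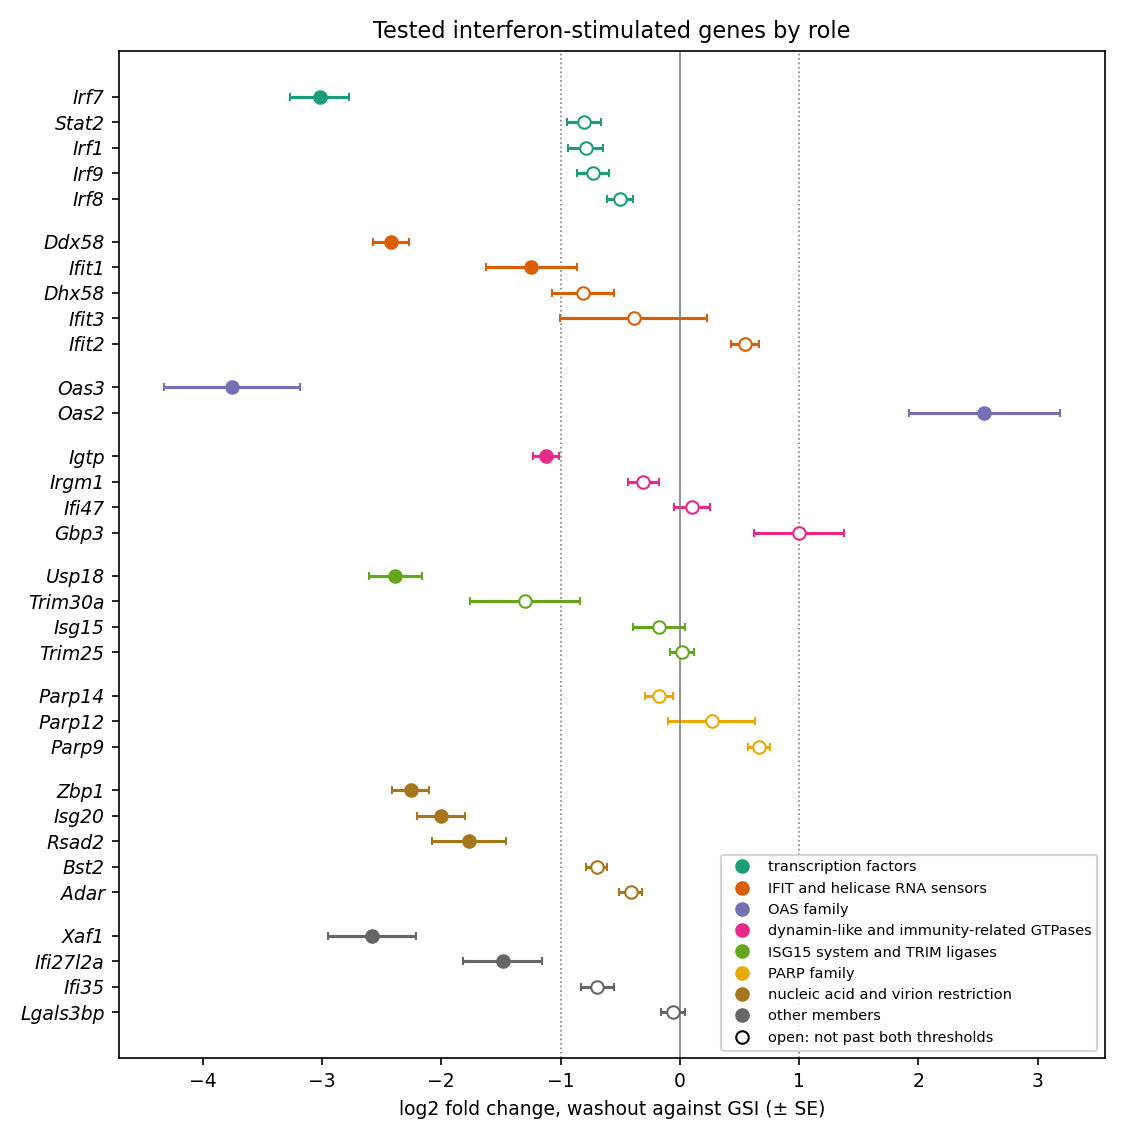
Washout against GSI log2 fold changes with their SE for the 32 tested ISGs, grouped and colored by role, with dotted lines at 1 and -1 and filled points for genes past both thresholds. The 5 transcription factors and the 5 restriction genes all lie below 0, and Oas2, Parp9 and Ifit2 are the points above 0 whose adjusted p was under 0.05.

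The other genes of the interferon pathway were compared as lists, which hold further ISGs and MHC class I genes besides the upstream part. Of 143 such genes, 103 were tested, and their median log2 fold change was -0.60. Of those tested, 34 (33.0%) were lower and 1 was higher, against 11.7% and 7.74% of all genes tested. The further ISGs gave 18 of the 34 and the MHC class I genes gave 5. Of 19 interferon genes, 16 had no count in any library, including Ifnb1, Ifng and all Ifna genes except Ifna11, which had 1 read. The only interferon gene tested, Ifnz, had 1.499 and 1.92 CPM in GSI against 0.235 and 0.149 in washout. Its log2 fold change was -2.99 ± 0.44 (edgeR adjusted p of 0.00234). This value rests on few reads, with 48 and 28 counts in GSI and 8 and 2 counts in washout. Transcripts of Ifnb1 and Ifng were thus not detected at this depth, at which 3 counts are 0.0881 to 0.223 CPM.

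Of 6 receptor genes, Ifnlr1 had 1 read in all and was not tested. The other 5 were lower by the adjusted p, and 2 by more than 2-fold. Ifngr1, a chain of the interferon gamma receptor, had 673 and 542 CPM in GSI against 199 and 147 in washout, a log2 fold change of -1.81 ± 0.19 (edgeR adjusted p of 0.000731). Il10rb, shared by the receptors of interferon lambda and interleukin 10, had a log2 fold change of -1.35, a call that was lost with DESeq2 (adjusted p of 0.0754) and after thinning to the smallest library (edgeR adjusted p of 0.0597). Those of Ifnar1 and Ifnar2, the chains of the type I receptor, were -0.64 and -0.50, and that of Ifngr2 was -0.72. The calls of Ifnar2, Ifngr2 and Il10rb were lost without GSI replicate 2. Those of Ifnar2 and Il10rb were also lost without GSI replicate 1 and without washout replicate 1. Each such fit leaves 1 library in a group. For each of these receptor chains, both washout libraries were below both GSI libraries. Of the 10 JAK and STAT genes, Jak2, Stat4 and Tyk2 fell, with log2 fold changes of -1.43, -1.85 and -1.03, and Jak1 was lower by less than 2-fold (-0.49), a call that was lost without GSI replicate 1 with an edgeR adjusted p of 0.0695.

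Of 10 negative regulators, Pias3 was lower, with a log2 fold change of -1.01 that was lost without GSI replicate 1 (edgeR adjusted p of 0.103), and 7 did not pass the adjusted p. The log2 fold change of Pias3 was -0.986 with DESeq2, which missed the threshold of -1. Among 13 genes of nucleic acid sensing, Ikbke and Ticam1 fell, with log2 fold changes of -1.03 and -1.32. Mb21d1, which encodes the DNA sensor cGAS, rose, with 11.2 and 11.99 CPM in GSI against 35.2 and 25.5 in washout, a log2 fold change of 1.40 ± 0.18 (edgeR adjusted p of 0.00154). Of 8 other interferon regulatory factors, Irf2 fell, with a log2 fold change of -1.28. Of 38 further ISGs tested, 18 (47.4%) fell by both thresholds, with a median log2 fold change of -0.91, and with the adjusted p alone 24 were lower and 2 higher. Slfn5 had 6.28 and 11.03 CPM in GSI against 0.382 and 0.670 in washout, where these rest on only 13 and 9 counts. Its log2 fold change of -4.14 ± 0.45 was the largest fall. The others were Oas1b (-2.31), Oas1c (-2.05), Trim34a (-1.78), Uba7 (-1.71), Gbp6 (-1.68), Sp100 (-1.67), Gbp4 (-1.50), Irgm2 (-1.32), Trim12c (-1.31), Helz2 (-1.31), Ifi203 (-1.29), Ifit1bl1 (-1.25), Ifitm2 (-1.23), Trim14 (-1.20), Shisa5 (-1.16), Trim21 (-1.04) and Gbp9 (-1.002). The calls of Ifi203 and Ifit1bl1 were lost without any 1 of the 4 libraries and with DESeq2, that of Ifitm2 with DESeq2 and without any library but GSI replicate 2, and that of Oas1c without GSI replicate 1, with adjusted p-values from 0.0549 to 0.299. With DESeq2, Gbp9 had a log2 fold change of -0.985 and so missed the threshold of -1. Uba7 encodes the enzyme that activates Isg15, and Isg15 itself did not pass the test.

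MHC class I genes present peptides to T cells and are also induced by interferon. Of 20 such genes, 5 (25.0%) fell by both thresholds, against 11.7% of all genes tested. With the adjusted p alone, 9 were lower and 3 were higher. The 3 were B2m, Erap1 and Psme2, with log2 fold changes of 0.61, 0.58 and 0.39. The CPM summed over the 20 genes was 2872 and 2754 in the GSI libraries and 2818 and 2822 in the washout libraries. Nlrc5, the transactivator of MHC class I, had a log2 fold change of -2.54, and H2-T23, H2-M3, H2-D1 and Tapbp had log2 fold changes of -2.03, -1.69, -1.64 and -1.31. The call of Nlrc5 was lost without GSI replicate 1 and that of H2-M3 without washout replicate 1, with edgeR adjusted p-values of 0.0895 and 0.0589. Their median log2 fold change was -0.40, compared with -0.71 for the 32 ISGs, and this difference was not tested.

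**Figure D5:**
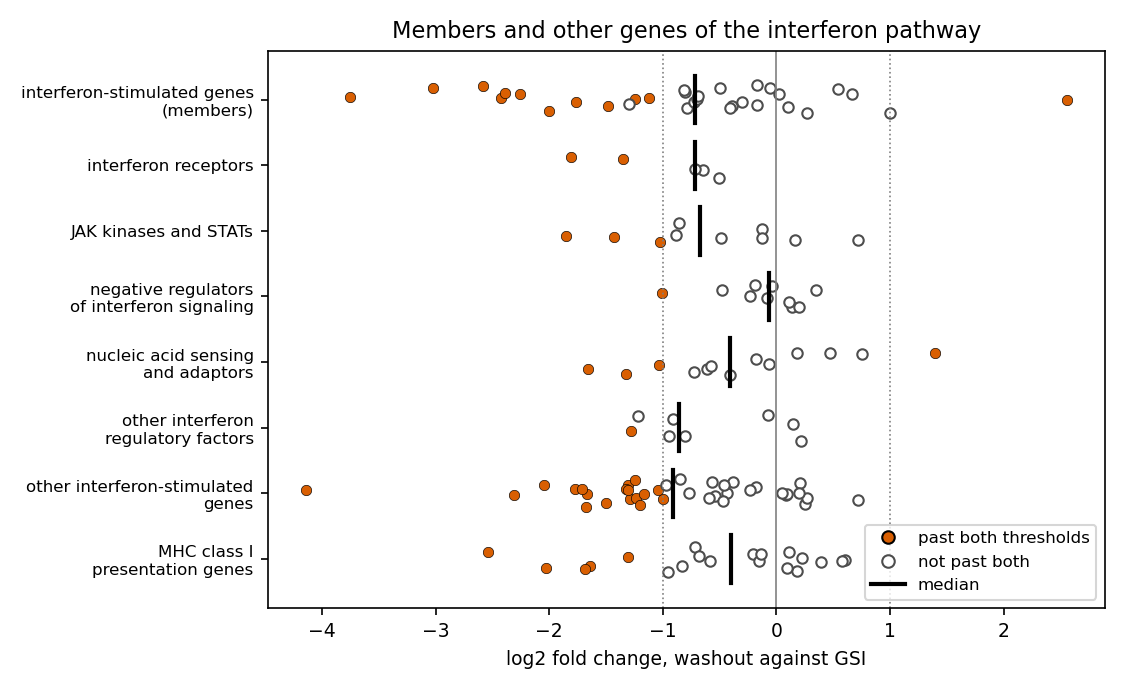
Washout against GSI log2 fold changes (horizontal axis) of the tested ISGs and of the tested genes of 7 other lists of the interferon pathway, with orange points past both thresholds, open points that are not, and a black line at each median. Points are spread vertically within a list for legibility, and beyond 1 lie only Oas2, Mb21d1 and, open, Gbp3.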

How the data were processed

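RNA-Seq was analyzed in 4 libraries, 2 of GSI and 2 of washout, grouped by their labels. Per the submitters' processing notes, reads were aligned to mm9 with HISAT2 2.2.1. The authors trimmed reads beforehand, kept 1 alignment per read, used summarizeOverlaps for counting and deposited raw counts per gene. The notes also name DESeq2 1.24.0. The strand setting and overlap mode are not given in the sources used here, so counts of overlapping genes and near-identical copies are uncertain.

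Total counts were 29671401 and 13716199 (GSI) and 36364200 and 14451995 (washout). Counts were tested with edgeR 4.0.16 in R 4.3.3 (filterByExpr, TMM, quasi-likelihood test, Benjamini-Hochberg adjustment over all 12266 genes), and the SE is the log2 fold change over the square root of F. With 2 libraries against 2, an exact permutation test cannot go below 0.333. Scripts were tested on simulated data. Positions and exon lengths are from GENCODE vM1 on mm9, which matched 43 of 43 ISGs, and promoter windows are from RefSeq (GRCm38.p6). Alternatives were DESeq2 1.42.0, RLE factors, total count alone, a filter of 1 count in all or of 10 counts in each library, a replicate block, a correction for GC content and length, thinning to the smallest library, the adjusted p alone, glmTreat, and leaving out each library.

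The members and lists were chosen with earlier results of these data known. The text gives values in every library for ISGs past both thresholds, the 5 transcription factors and the ISG with the highest level per length, and names, from the other lists, Ifnar1, Ifnar2, Ifngr1, Ifngr2, Jak1, Tyk2, all genes past both thresholds and Hes1, Hey1, Dtx1 and Notch1. Some genes chosen by this rule are not reported here. Other genes named were chosen after their values were seen.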

Additional observations from a re-analysis of the deposited data

How the results depend on the processing

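The ISGs that fell numbered 8 to 14 among the interferon-stimulated genes when size factors, filter, tool, depth, block or GC correction were changed (14 with the total count only, where Dhx58, Stat2 and Trim30a were added, and 8 with at least 10 counts in every library), 10 to 11 without single libraries, 19 by the adjusted p alone and 7 by glmTreat. The number that rose was 2 without a filter, where Ifi204 was added, 0 with at least 10 counts in every library, where Oas2, Oas3, Ifit1 and Xaf1 were not tested, 3 by the adjusted p alone and 0 by glmTreat, and 0 to 2 without single libraries, where Oas2 was lost without GSI replicate 2 and Ifi204 was added without washout replicate 2. The median log2 fold change of the interferon-stimulated genes was -0.91 with the total count only, which moved the median of all genes to -0.21, and -0.68 to -0.79 otherwise, including -0.74 to -0.69 without single libraries. Of the 12 ISGs called, 12 kept their direction in every alternative that tested them all. DESeq2 called 11 of them and glmTreat 7, and 10 to 11 were called without single libraries.

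The replicate numbers are shared between GSI and washout, but with 2 pairs and no label of a shared batch they do not pair the libraries, and the differences between replicates 1 and 2 correlated at 0.497 between the groups over 12266 genes. With the replicate number as a block, 12 of the interferon-stimulated genes were lower and 2 higher, as Trim30a and Gbp3 were added, and 34 of the other interferon pathway genes were lower.

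Among all genes, the number higher was 586 with the total count only, 3315 by the adjusted p alone and 308 by glmTreat, and the number lower was 3120 by the adjusted p alone and 501 by glmTreat. Without single libraries these were 881 to 1064 and 1118 to 1375. For the other interferon pathway genes, the number higher was 8 by the adjusted p alone, 0 by glmTreat, and 0 after the GC and length correction with or without the replicate block, as Mb21d1 has no exon length in the annotation and was left out, and 1 without any single library. The number lower was 57 by the adjusted p alone, 12 by glmTreat and 24 to 32 without single libraries.

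Among single ISGs, only 4 that did not pass the test changed direction. Ifi47 was -0.0979 with the total count only, -0.0987 after the GC and length correction, -0.1011 with the replicate block in addition, and -0.0356 to 0.2471 without single libraries. Lgals3bp was 0.0333 after the GC and length correction, 0.0296 with the block in addition, and -0.1203 to 0.0336 without single libraries. Parp12 was -0.0454 to 0.8003 without single libraries. Trim25 was -0.1773 with the total count only, -0.0157 with at least 10 counts in every library, -0.0169 after thinning, -0.0172 with the block in addition, and -0.0556 to 0.1122 without single libraries. Where no cause is given, the cause was not tested. Each fit without a library leaves 1 in its group, which is assumed to vary like the other group. ISGs with few counts, such as Oas2, Oas3, Xaf1, Ifit1 and the 11 not tested, are limited by depth.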
